A study of Homo sapiens with 41 samples.

Results

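The 46 genes described here encode the non-collagen proteins of the extracellular matrix. They comprise 13 adhesive and matricellular glycoproteins, 17 proteins of elastic fibres and microfibrils, 4 of basement membranes, 7 small leucine-rich proteoglycans, 4 hyaluronan-binding proteins and 1 mineral-binding protein. They were chosen by symbol, and all 46 were found by Ensembl ID among the 58735 genes of each count table. RNA sequencing counts came from 32 samples in 16 groups of 2, made to study the function of the stress-responsive transcription factor ATF4 in liver fibrosis. LX-2, an immortalised human hepatic stellate cell line, carried a hairpin against ATF4 (shATF4) or a control hairpin (shCtrl) and was sampled with TGFbeta, the cytokine that activates stellate cells, with Thapsigargin, which blocks the calcium pump of the endoplasmic reticulum, under AA_Dep, read here as amino acid deprivation, or with DMSO. HMLE, an immortalised human mammary epithelial line, carried the same hairpins and was sampled with Twist_OE, read here as overexpression of the epithelial-mesenchymal transition factor Twist, with Thapsigargin, under AA_Dep, or with DMSO. Every cell thus carried a hairpin, a single hairpin against ATF4 is named, and the labels give neither dose nor time. Both lines were grown without the other cells of their tissue. The labels do not say that replicates were separate cultures, so p-values measure the spread between these samples, which may be technical.

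Matrix glycoproteins and proteoglycans are secreted through the endoplasmic reticulum and assembled outside the cell. Fibronectin forms the first fibrils, on which collagens and fibrillin microfibrils are laid down, and the latent TGF-beta binding proteins of those microfibrils store TGF-beta. Nidogens, perlecan and agrin build basement membranes, small leucine-rich proteoglycans space collagen fibrils, and versican binds hyaluronan. In injured liver, activated stellate cells are a main source of such proteins. ATF4 is made when the integrated stress response slows translation, and it raises genes of amino acid supply.

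Gene counts summed to 14551191 to 18776430 per LX-2 library and to 15956909 to 23243132 per HMLE library. The 2 files of HMLE shATF4 AA_Dep held identical values and were counted as 1 library. Replicate 2 of LX-2 shCtrl Thapsigargin detected 15840 genes, whereas the remaining LX-2 libraries detected 22912 to 24255, and its correlation with its replicate over log2(CPM + 1) was 0.8917, where no other LX-2 pair was under 0.9935. It was left out of the main fit, in which LX-2 shCtrl Thapsigargin is a single library assumed to vary like the other groups, and counts of calls with all 16 LX-2 libraries are given beside those from 15. ATF4 itself had 109.6 to 205.4 CPM (counts scaled to library size) in LX-2 shATF4 libraries and 207.4 to 713 CPM in the LX-2 shCtrl libraries used, and 111.2 to 166.3 CPM in HMLE shATF4 libraries, against 311.5 to 946 CPM in HMLE shCtrl libraries. It was lower with shATF4 in all 8 line and condition pairs, with log2 changes of -0.91 to -2.78. In the fit of all 16 LX-2 libraries ATF4 kept its sign in LX-2. There it passed with Thapsigargin (-2.27) but not with DMSO (-0.92), TGFbeta (-1.08) or AA_Dep (-1.65; edgeR adjusted p of 0.43, 0.13 and 0.11). Of 11 stellate and fibroblast markers, 6 to 8 reached 1 CPM in the LX-2 libraries used, with DES or LRAT at 0 in many. In HMLE 5 to 8 did so, so this count does not separate the lines. Their sums were 773.5 to 16920 CPM in LX-2 and 52.2 to 2199 CPM in HMLE, highest there with Twist_OE. All 10 epithelial markers reached 1 CPM in HMLE, and 4 to 6 in LX-2. Summed markers of hepatocytes (3.92 to 40.5 CPM), endothelial cells (1.65 to 24.7 CPM) and leukocytes (1.69 to 17.8 CPM) were low in both lines.

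Promoters are shown for FN1, SPARC and POSTN, whose levels are followed through the comparisons, and for LTBP1, the other member promoter with the response element found in FN1, as the 250 bases before the annotated start, from RefSeq on GRCh38.p14. These are FN1 (fibronectin, chr2:215436069-215436318, minus strand), LTBP1 (latent TGF-beta binding protein, chr2:32946703-32946952, plus strand), SPARC (a collagen-binding glycoprotein, chr5:151686916-151687165, minus strand) and POSTN (periostin, chr13:37598769-37599018, minus strand). Capitals mark the cyclic AMP response element TGACGTCA in FN1 and LTBP1, the E-box CANNTG in SPARC, and in POSTN an AP-1 motif TGANTCA that overlaps an E-box, a further E-box and TATAAA on either strand.
FN1: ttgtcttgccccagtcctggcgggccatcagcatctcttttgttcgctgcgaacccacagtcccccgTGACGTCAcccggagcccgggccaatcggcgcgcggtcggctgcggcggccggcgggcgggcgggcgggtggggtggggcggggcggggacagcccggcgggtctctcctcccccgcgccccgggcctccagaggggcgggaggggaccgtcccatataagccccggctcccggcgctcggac
LTBP1: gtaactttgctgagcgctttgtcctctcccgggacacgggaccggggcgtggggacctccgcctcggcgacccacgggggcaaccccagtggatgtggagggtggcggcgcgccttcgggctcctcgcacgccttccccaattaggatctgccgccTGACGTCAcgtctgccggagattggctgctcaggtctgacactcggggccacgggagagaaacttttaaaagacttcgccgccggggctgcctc
SPARC: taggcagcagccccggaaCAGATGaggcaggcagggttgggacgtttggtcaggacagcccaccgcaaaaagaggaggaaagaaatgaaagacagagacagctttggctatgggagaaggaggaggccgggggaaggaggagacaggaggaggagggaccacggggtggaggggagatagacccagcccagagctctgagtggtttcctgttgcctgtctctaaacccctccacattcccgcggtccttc
POSTN: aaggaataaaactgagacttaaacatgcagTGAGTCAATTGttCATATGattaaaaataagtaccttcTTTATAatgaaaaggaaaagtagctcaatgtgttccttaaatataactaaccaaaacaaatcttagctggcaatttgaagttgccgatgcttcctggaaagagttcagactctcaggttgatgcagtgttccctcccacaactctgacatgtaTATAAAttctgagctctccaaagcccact
Motifs were searched on both strands of the 37 member promoters with an entry and of all 27305 promoters. TGACGTCA was in 2 members' promoters (5.41%, FN1 and LTBP1), against 1.77% of all promoters. The ATF4 composite motif TGATGNAA was in 1 (2.7%, ASPN), against 3.19%. The SMAD motif CAGACA was in 5 (13.5%), against 13.6%, TGANTCA in 4 (10.8%), against 6.6%, CANNTG in 19 (51.4%), against 62.2%, and TATAAA in 6 (16.2%), against 11.1%. EFEMP1, ELN, EMILIN1, MFAP4, MFAP5, DCN, LUM, MGP and AGRN had no entry in the table.

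The 46 genes together took the largest share of counts in LX-2 shCtrl with TGFbeta, at 4.27% and 4.18% of the 2 libraries, against 1.27% and 1.17% with DMSO. Fibronectin alone made up 2.29% and 2.21% with TGFbeta, against 0.479% and 0.392% with DMSO. With shATF4 the share was 2.74% and 2.59% with TGFbeta and 0.827% and 0.812% with DMSO, below both shCtrl libraries of the same condition. With Thapsigargin it was 0.457% and 0.464% with shATF4, against 0.414% with shCtrl, and under AA_Dep 0.437% and 0.458% with shATF4, against 0.466% and 0.495% with shCtrl. In HMLE the share was 1.12% and 1.01% in shATF4 Twist_OE, against 2.58% and 2.17% in shCtrl Twist_OE, and it was 0.365% and 0.351% in shATF4 DMSO, against 0.347% and 0.339% in shCtrl DMSO. Under AA_Dep the HMLE share was 1.24% with shATF4, against 0.809% and 0.904% with shCtrl, and with Thapsigargin 0.475% and 0.477%, against 0.438% and 0.384%. Fewer cells making a transcript and less of it per cell cannot be told apart in these bulk samples.

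**Figure D1:**
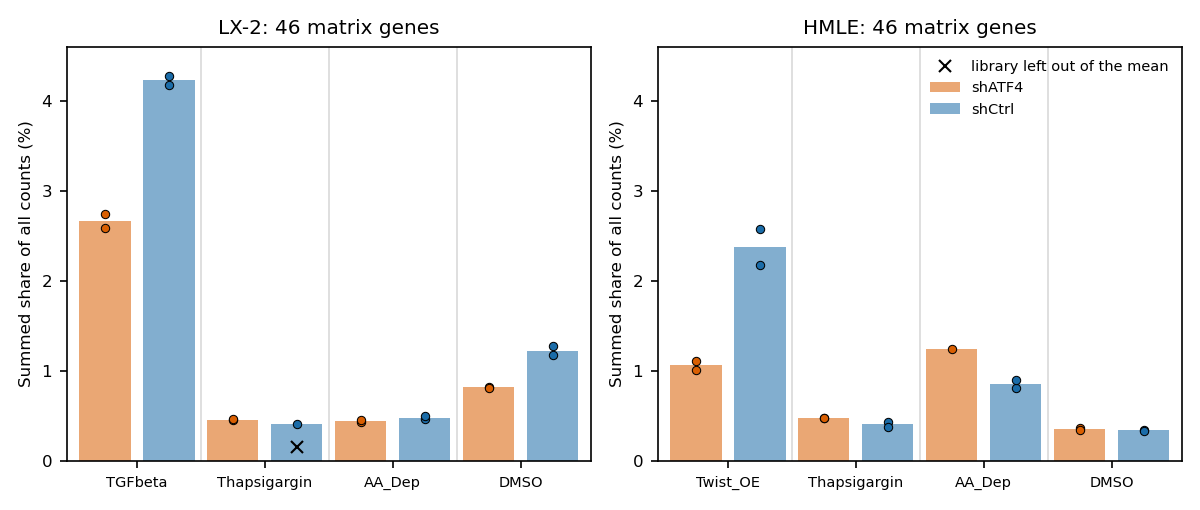
Share of each library's gene counts (%) taken by the 46 genes, by condition in LX-2 and HMLE, shATF4 left of shCtrl. Bars are group means, points are libraries, and the cross is the discordant LX-2 shCtrl Thapsigargin library, which no bar includes. The tallest bar of LX-2 is shCtrl TGFbeta, with libraries at 4.27% and 4.18%, and that of HMLE is shCtrl Twist_OE, at 2.58% and 2.17%, each above its shATF4 bar.

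TGFbeta raised fibronectin, periostin and versican among other members in LX-2 shCtrl and lowered PTX3. Of the 38 members with enough counts to test in LX-2, 17 were higher and 3 lower than with DMSO at an adjusted p below 0.05, while 18 did not pass, against 22.1% of all genes called, 11.1% higher and 11% lower. The members' median log2 change was 0.21, against 0.00 over all genes tested. By role, 6 of 10 adhesive genes, 6 of 15 elastic fibre genes, 1 of 4 basement membrane genes, 1 of 4 small leucine-rich proteoglycans and 2 of 4 hyaluronan-binding genes rose. COMP, SPARCL1, SMOC2, ELN, MFAP5, FMOD, ASPN and OGN had too few counts to test in LX-2, and passing that filter is no finding.

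FN1 had 23030 and 22200 CPM with TGFbeta, against 4396 and 3735 CPM with DMSO, a log2 change of 2.50 ± 0.10 (SE; edgeR adjusted p = 2.7e-11). TGFBI, a TGF-beta-induced integrin ligand, had 8743 and 8862 CPM, against 1096 and 1181 CPM with DMSO (2.98 ± 0.06, adjusted p = 1.5e-14). In both genes each TGFbeta library lay well above each DMSO library. SPARC had 4612 and 4649 CPM, against 1410 and 1498 CPM (1.70 ± 0.06, adjusted p = 8.3e-12). THBS1, thrombospondin-1, which activates latent TGF-beta, had 1243 and 1152 CPM, against 358.7 and 337.9 CPM (1.81 ± 0.14, adjusted p = 1.5e-07). POSTN had 28 and 25.1 CPM, against 1.86 and 2.22 CPM (3.73 ± 0.20, adjusted p = 1.9e-08). The groups did not overlap in any of these, and periostin was near trace level in both DMSO libraries. THBS2, an anti-angiogenic thrombospondin, did not pass, with 1063 and 1027 CPM, against 1149 and 1096 CPM (-0.08 ± 0.07, adjusted p = 0.46).

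Among the other roles, LTBP2, a microfibril protein, had 80.4 and 83 CPM with TGFbeta, against 14.8 and 11.8 CPM with DMSO (2.64 ± 0.13, adjusted p = 5.2e-10). FBN1, the fibrillin backbone of microfibrils, had 588.7 and 566.3 CPM, against 272.9 and 216.1 CPM (1.26 ± 0.11, adjusted p = 5.4e-07). FBLN5, which aids elastic fibre assembly, and LTBP1 also rose, by 2.08 and 0.55 on the log2 scale, and FBLN2 did not pass (-0.23 ± 0.09, adjusted p = 0.076). BGN, the proteoglycan biglycan, had 34.5 and 29.2 CPM, against 2.55 and 2.52 CPM (3.67 ± 0.19, adjusted p = 8.6e-10), and VCAN, versican, had 129.7 and 115.3 CPM, against 18.5 and 14.3 CPM (2.92 ± 0.14, adjusted p = 2.9e-10). Both stood clear of the DMSO libraries. In the basement membrane group NID2, a nidogen, rose (1.53), while HSPG2, perlecan, fell by 0.39 and AGRN, agrin, by 0.27. Those 2 falls and the LTBP1 rise are small, and each lost its call without some single libraries: HSPG2 without DMSO 1 or TGFbeta 2 (edgeR adjusted p of 0.11 to 0.12), AGRN without DMSO 2 or either TGFbeta library (0.063 to 0.17) and LTBP1 without DMSO 2 or TGFbeta 1 (0.086 to 0.11). PTX3, a pentraxin of innate immunity that also stabilises hyaluronan, had 41.2 and 39.4 CPM, against 244.7 and 271.2 CPM with DMSO (-2.65 ± 0.08, adjusted p = 2.2e-12). In the fit of all 16 LX-2 libraries 10 members were higher and 1 lower (3.15% of all genes called), FN1, SPARC, TGFBI, VCAN, POSTN, THBS1 and PTX3 among them, and TNC, FBN1 and NID2 no longer passed. Summed stellate and fibroblast markers, of which COL1A1 and COL3A1 are collagens, were 16920 and 16820 CPM with TGFbeta, against 5703 and 6172 CPM with DMSO. The 10 epithelial markers, 4 to 6 of which reached 1 CPM in LX-2, summed to 1688 and 1812 CPM, against 860.2 and 1006 CPM. The part of either marker list in these results was not tested.

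**Figure D2:**
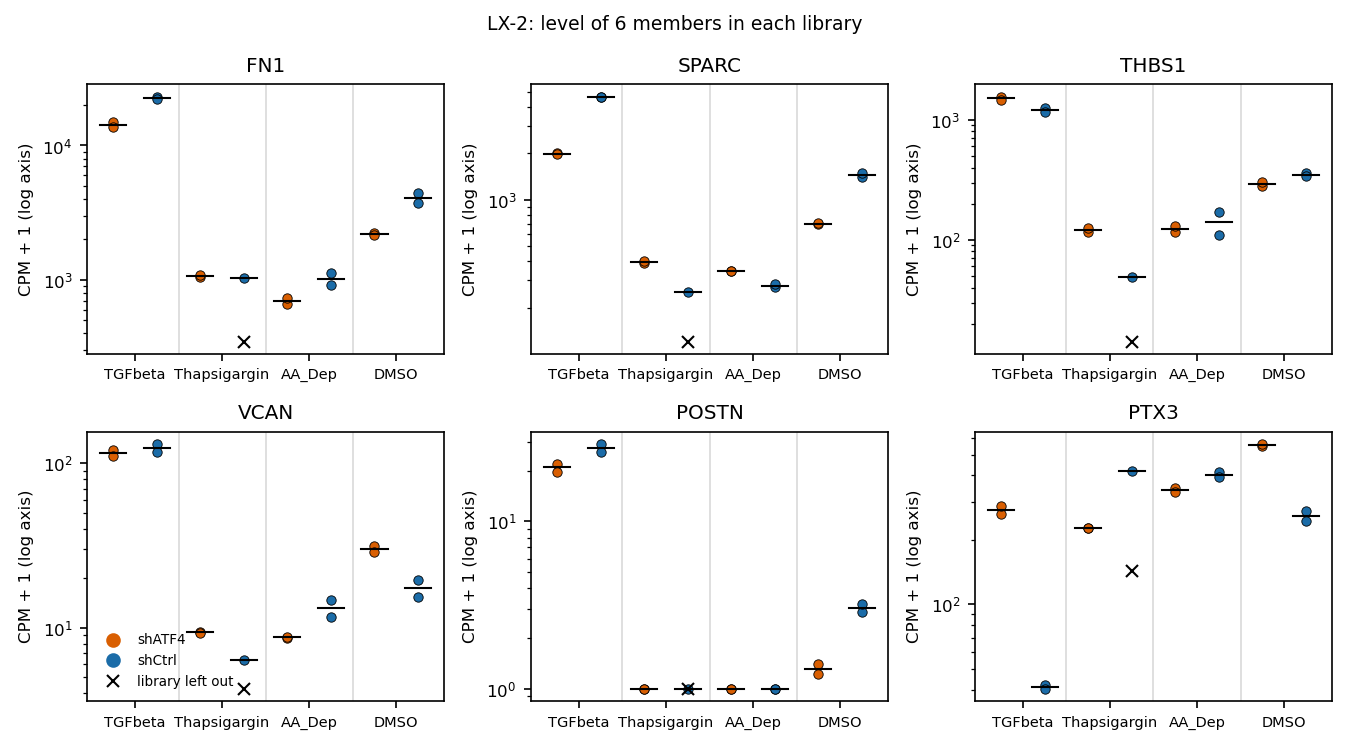
CPM + 1 (log axis) of FN1, SPARC, THBS1, VCAN, POSTN and PTX3 in each LX-2 library, by condition, shATF4 left of shCtrl, with lines at group means and the discordant library as a cross. FN1 in shCtrl lies at 23030 and 22200 CPM with TGFbeta and near 1000 CPM in the stressed libraries used, with the cross at 347.3 CPM. PTX3 in shCtrl is lowest with TGFbeta, at 41.2 and 39.4 CPM.

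Thapsigargin and AA_Dep each lowered most adhesive and basement membrane genes of LX-2 shCtrl and raised a small set led by SMOC1. The small leucine-rich proteoglycans tested, all scarce, were lower too. These comparisons share the DMSO samples, so their values are given side by side. With Thapsigargin 8 members were higher and 25 lower, against 40.5% of all genes called, 20.2% higher and 20.4% lower, and under AA_Dep 6 were higher and 26 lower, against 45.6% called, 22.8% higher and 22.7% lower. The median log2 change was -1.28 with Thapsigargin and -0.97 under AA_Dep, against 0.01 and 0.02 over all genes. Thapsigargin lowered 8 of 10 adhesive genes, 8 of 15 elastic fibre genes, 3 of 4 basement membrane genes and 4 of 4 small leucine-rich proteoglycans. AA_Dep lowered 8, 9, 3 and 4 of the same groups. The 4 small leucine-rich proteoglycans were near the floor already with DMSO. DCN, LUM and PRELP had 29, 32 and 39 counts in the DMSO libraries together, and BGN had 2.55 and 2.52 CPM. DCN lost its call under either stress without some single libraries, and BGN had 3.35 CPM in the left-out Thapsigargin library, above both DMSO libraries.

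FN1 had 1039 CPM with Thapsigargin and 919 and 1118 CPM under AA_Dep, against 4396 and 3735 CPM with DMSO (-1.95 ± 0.13, adjusted p = 7.4e-09, and -1.97 ± 0.10, adjusted p = 2.2e-10). SPARC had 250.9 CPM and 270.4 and 282 CPM, against 1410 and 1498 CPM (-2.51 ± 0.08, adjusted p = 2.3e-12, and -2.37 ± 0.06, adjusted p = 1.8e-13). Every stressed library lay below both DMSO libraries for these genes. THBS1 had 47.9 CPM with Thapsigargin and 108.1 and 169.5 CPM under AA_Dep, against 358.7 and 337.9 CPM with DMSO (-2.84 ± 0.20 and -1.30 ± 0.14). TGFBI had 187 CPM with Thapsigargin and 516.4 and 502 CPM under AA_Dep, against 1096 and 1181 CPM (-2.58 ± 0.08 and -1.13 ± 0.06). The Thapsigargin library was the lowest in both genes. POSTN had 0 counts in the Thapsigargin library and 0 in the AA_Dep libraries, against 81 counts in the DMSO libraries, at least 12.5-fold and at least 26-fold lower with a floor of 3 counts over the group.

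FBLN1, a fibulin of elastic fibres and basement membranes, showed the largest fall among members above 5 CPM, with 0.448 CPM with Thapsigargin and 0.637 and 0.26 CPM under AA_Dep, against 57.5 and 61.4 CPM with DMSO (-7.01 ± 0.31, adjusted p = 3e-10, and -6.98 ± 0.23, adjusted p = 1.1e-11). In shATF4 cells under AA_Dep it had 0 counts, against 1449 counts with DMSO, at least 494-fold lower. The TGFbeta libraries, at 53.3 and 51.6 CPM, did not show this loss. NID1, a basement membrane linker, had 32.9 CPM with Thapsigargin and 55.7 and 61.7 CPM under AA_Dep, against 196.4 and 195.6 CPM (-2.55 ± 0.12 and -1.71 ± 0.09). VCAN had 5.38 CPM with Thapsigargin and 10.6 and 13.7 CPM under AA_Dep, against 18.5 and 14.3 CPM (-1.59 ± 0.21, adjusted p = 1.5e-05, and -0.41 ± 0.15, adjusted p = 0.033). For versican the AA_Dep libraries lay just below the lower DMSO library, and the call was lost without AA_Dep 1 or DMSO 1 (adjusted p of 0.24 to 0.37).

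SMOC1, a calcium-binding relative of SPARC in basement membranes, went the other way, with 138 counts (6.87 CPM) in the Thapsigargin library and 266 counts (6.81 and 6.59 CPM) under AA_Dep, against 0 counts in both DMSO libraries. That is at least 99.5-fold and at least 92-fold higher. Over both hairpins SMOC1 was at 1 CPM or more in all 7 stressed LX-2 libraries and at 0.1 CPM or less in all 8 DMSO and TGFbeta libraries, a pattern that 7 genes of the whole table showed. NID2 had 39.2 CPM with Thapsigargin and 20.8 and 24.7 CPM under AA_Dep, against 11.2 and 11.7 CPM with DMSO (1.80 ± 0.16 and 1.02 ± 0.14). The other nidogen, NID1, fell. PTX3 had 418.5 CPM and 412.5 and 391.7 CPM, against 244.7 and 271.2 CPM (0.72 ± 0.09 and 0.67 ± 0.07). In the left-out Thapsigargin library NID2 had 9.76 CPM and PTX3 142.3 CPM, each below both DMSO libraries, so their rises with Thapsigargin rest on 1 library. FBLN5 (1.14 and 1.56) and LTBP1 (0.66 and 1.17) also rose under both stresses. With all 16 LX-2 libraries the Thapsigargin counts were 4 higher and 20 lower (34.4% of genes called) and those of AA_Dep 2 higher and 16 lower (13% called). FN1, SPARC, FBLN1, POSTN and SMOC1 still passed under both stresses, whereas THBS1 under AA_Dep did not. LTBP1, LTBP3 and EFEMP2 changed sign with Thapsigargin. The stressed counts of SMOC1 may be what let it be tested in LX-2, so its passing the filter is no finding. Summed stellate and fibroblast markers were 773.5 CPM with Thapsigargin and 1057 and 962.1 CPM under AA_Dep, against 5703 and 6172 CPM with DMSO, and their part in the lower levels was not tested.

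The shATF4 hairpin went with lower fibronectin, SPARC, thrombospondin-2 and the fibulins FBLN1, FBLN2 and EFEMP1 in LX-2 with DMSO and with TGFbeta, but not with Thapsigargin. With DMSO 3 members were higher and 13 lower than in shCtrl (11.6% of all genes called, 6.28% higher and 5.3% lower), and with TGFbeta 1 was higher and 15 lower (21.7% called, 10.9% higher and 10.7% lower). The members' median log2 change was -0.33 with DMSO and -0.55 with TGFbeta, against 0.01 and -0.01 over all genes. FN1, TGFBI, THBS2, SPARC, FBLN1, FBLN2, EFEMP1, LTBP4, NID1, AGRN and BGN, 11 in all, were lower in both conditions, or 11 of the 13 and 11 of the 15. These 2 comparisons share no sample, but they share the hairpins and the fit, so they are not independent. The share of all genes lower in both is not given here, so this overlap has no background.

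SPARC had 698 and 700.8 CPM in shATF4 DMSO, against 1410 and 1498 CPM in shCtrl DMSO (-1.03 ± 0.06, adjusted p = 3.1e-08), and 1996 and 1972 CPM in shATF4 TGFbeta, against 4612 and 4649 CPM in shCtrl TGFbeta (-1.22 ± 0.06, adjusted p = 1.2e-09). THBS2 had 563.5 and 547 CPM in shATF4 DMSO, against 1149 and 1096 CPM (-0.99 ± 0.07, adjusted p = 1.7e-07), and 484.4 and 484.2 CPM in shATF4 TGFbeta, against 1063 and 1027 CPM (-1.11 ± 0.07, adjusted p = 1.6e-08). In both conditions every shATF4 library lay below every shCtrl library. FN1 had 2230 and 2150 CPM in shATF4 DMSO, against 4396 and 3735 CPM (-0.87 ± 0.09, adjusted p = 1.6e-05), and 14850 and 13760 CPM in shATF4 TGFbeta, against 23030 and 22200 CPM (-0.66 ± 0.09, adjusted p = 0.0001). TGFBI had 4846 and 4801 CPM in shATF4 TGFbeta, against 8743 and 8862 CPM (-0.87 ± 0.05, adjusted p = 2.1e-08). FBLN2, a fibulin that binds fibronectin and nidogen, had 163.2 and 161.6 CPM in shATF4 TGFbeta, against 360.6 and 365.5 CPM (-1.16 ± 0.09, adjusted p = 1.9e-07). Fibronectin with TGFbeta thus stayed far above its DMSO level in shATF4 cells.

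NID2 had 11.9 and 11.1 CPM in shATF4 TGFbeta, against 36.7 and 28.2 CPM in shCtrl TGFbeta (-1.50 ± 0.14, adjusted p = 1.8e-06), and BGN had 13.1 and 12.7 CPM, against 34.5 and 29.2 CPM (-1.31 ± 0.16, adjusted p = 3.1e-05). NID2 in shATF4 TGFbeta cells lay close to its level in shCtrl DMSO cells. THBS1 did not pass in either condition, with 279.6 and 301.5 CPM in shATF4 DMSO, against 358.7 and 337.9 CPM (-0.24 ± 0.14, adjusted p = 0.31), and 1556 and 1458 CPM in shATF4 TGFbeta, against 1243 and 1152 CPM (0.33 ± 0.14, adjusted p = 0.11). With TGFbeta POSTN (21.2 and 18.9 CPM, against 28 and 25.1 CPM; -0.41 ± 0.16, adjusted p = 0.085) and VCAN (118.6 and 110 CPM, against 129.7 and 115.3 CPM; -0.10 ± 0.12, adjusted p = 0.62) did not pass. With DMSO VCAN was higher in shATF4, at 30.2 and 28 CPM, against 18.5 and 14.3 CPM (0.84 ± 0.14, adjusted p = 0.00092), and POSTN was lower, at 0.221 and 0.398 CPM, against 1.86 and 2.22 CPM (-2.65 ± 0.34, adjusted p = 0.00031). PTX3 was higher with shATF4 in both, at 547.9 and 560.1 CPM in DMSO, against 244.7 and 271.2 CPM (1.13 ± 0.07, adjusted p = 1.1e-07), and at 264.5 and 286.4 CPM with TGFbeta, against 41.2 and 39.4 CPM (2.77 ± 0.08, adjusted p = 5.9e-12). The difference in TGFbeta response between hairpins passed for 5 of 38 members, 2 above 0 and 3 below (0.987% of all genes called, 0.563% above and 0.424% below), namely NID2, VCAN, FBLN2, PTX3 and POSTN. Without any one of 7 libraries it passed for 2 or 3, with VCAN, FBLN2 and POSTN among those lost.

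With all 16 LX-2 libraries in edgeR no member passed with DMSO (0.242% of all genes called), although 11 had an unadjusted p below 0.05 and the DESeq2 Wald test on 15 libraries called 17. With TGFbeta SPARC, THBS2, FBLN2 and LTBP4 still passed as lower and PTX3 as higher (1.29% of genes called). The test of the hairpins' difference in TGFbeta response was passed by no member with 16 libraries, with 5 at an unadjusted p below 0.05, and by 6 in DESeq2 on 15 libraries. Summed stellate and fibroblast markers were 7385 and 7390 CPM in shATF4 TGFbeta, against 16920 and 16820 CPM in shCtrl TGFbeta, and 3226 and 3142 CPM in shATF4 DMSO, against 5703 and 6172 CPM in shCtrl DMSO. Summed epithelial markers were 639.2 and 663.1 CPM in shATF4 TGFbeta, against 1688 and 1812 CPM in shCtrl TGFbeta, and 453 and 437.8 CPM in shATF4 DMSO, against 860.2 and 1006 CPM in shCtrl DMSO. The part of either list in the lower matrix levels was not tested.

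In stressed LX-2 cells the hairpins differed in other ways. With Thapsigargin 10 members were higher and 3 lower in shATF4 (5.2% of all genes called, 3.11% higher and 2.09% lower), all against the single shCtrl library of the main fit. THBS1 had 115.2 and 124.1 CPM in shATF4, against 47.9 CPM in shCtrl (1.34 ± 0.19, adjusted p = 0.0006), and SPARC had 384.9 and 401 CPM, against 250.9 CPM (0.67 ± 0.07, adjusted p = 6.1e-05). HSPG2 (0.75) and FBLN2 (0.74) were higher too, whereas PTX3 had 227.6 and 226.7 CPM, against 418.5 CPM (-0.86 ± 0.09). In the left-out shCtrl library PTX3 had 142.3 CPM, below both shATF4 libraries. FN1 did not differ beyond its error, with 1058 and 1087 CPM, against 1039 CPM (0.07 ± 0.11, adjusted p = 0.8), and VCAN did not pass (0.66 ± 0.21, adjusted p = 0.088). Under AA_Dep 4 members were higher and 10 lower (9.91% called, 3.87% higher and 6.04% lower). FN1 had 662.6 and 728.2 CPM in shATF4, against 919 and 1118 CPM in shCtrl (-0.55 ± 0.09, adjusted p = 0.0016), FBN2, a second fibrillin, had 56 and 58.8 CPM, against 79.9 and 105 CPM (-0.69 ± 0.14, adjusted p = 0.0068), and VCAN had 7.66 and 7.83 CPM, against 10.6 and 13.7 CPM (-0.66 ± 0.16, adjusted p = 0.015). SPARC was slightly higher, with 345.3 and 345.2 CPM, against 270.4 and 282 CPM (0.32 ± 0.06, adjusted p = 0.0028), and THBS1 did not pass (-0.19 ± 0.14, adjusted p = 0.46). THBS1 passed as lower without shCtrl AA_Dep 1 (adjusted p = 0.00019) and had the opposite sign without shCtrl AA_Dep 2 (0.18, adjusted p = 0.25). Calls under AA_Dep numbered 4, 6 and 9 without shATF4 AA_Dep 1, shATF4 AA_Dep 2 and shCtrl AA_Dep 2, each of which cost VCAN its call, and with Thapsigargin they numbered 7 without either shATF4 library. FBN2 also lost its AA_Dep call without some single libraries, with log2 changes of -0.879 to -0.475. POSTN had 0 counts in every stressed LX-2 library of either hairpin.

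The stress response of the members differed between hairpins for 14 of 38 with Thapsigargin (6.13% of all genes called, 3.67% above 0 and 2.46% below) and for 15 of 38 under AA_Dep, 10 above 0 and 5 below (10.6% called, 3.91% above and 6.65% below). With Thapsigargin the shATF4 response minus the shCtrl response was above 0 for 13 of them, such as SPARC (1.70 ± 0.09, adjusted p = 2.9e-08) and TGFBI (1.24 ± 0.09, adjusted p = 5.6e-07), 10 of which were lower with Thapsigargin than with DMSO in shATF4 as well. LTBP4, EFEMP1 and BGN did not pass in shATF4. SPARC fell by 0.81 in shATF4, to 384.9 and 401 CPM, against 698 and 700.8 CPM with DMSO, and by 2.51 in shCtrl. PTX3 was the exception (-1.99 ± 0.11): it fell with Thapsigargin in shATF4 (-1.26) and rose in the 1 shCtrl library used (0.72). The left-out shCtrl library, at 142.3 CPM, lay below both shCtrl DMSO libraries. With all 16 libraries no member passed for shATF4 against shCtrl with Thapsigargin (17 at an unadjusted p below 0.05, 13 called by DESeq2 on 15 libraries) or under AA_Dep (7 and 14). The Thapsigargin response difference then kept 3 members (0.27% of genes called), and that of AA_Dep none, with 9 at an unadjusted p below 0.05 and 14 called by DESeq2 on 15 libraries.

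Within shATF4 cells of LX-2 most members that passed were higher with TGFbeta and lower under either stress. Compared with DMSO, 14 were higher and 7 lower with TGFbeta (27.6% of all genes called, 13.5% higher and 14.1% lower), 6 higher and 22 lower with Thapsigargin (37.1% called, 17.8% higher and 19.2% lower) and 6 higher and 23 lower under AA_Dep (42.4% called, 20.3% higher and 22.1% lower). FN1 had 14850 and 13760 CPM with TGFbeta, against 2230 and 2150 CPM with DMSO (2.71 ± 0.10, edgeR adjusted p = 2.5e-11). SPARC (1.51 ± 0.06, adjusted p = 4.7e-11) and VCAN (1.98 ± 0.13, adjusted p = 2.5e-08) rose as well. THBS1 had 1556 and 1458 CPM with TGFbeta, against 279.6 and 301.5 CPM with DMSO (2.38 ± 0.15, adjusted p = 1.1e-08). POSTN had 21.2 and 18.9 CPM, against 0.221 and 0.398 CPM (5.97 ± 0.27, adjusted p = 5.3e-09), and PTX3 had 264.5 and 286.4 CPM, against 547.9 and 560.1 CPM (-1.004 ± 0.07, adjusted p = 6e-08). Under stress FN1 had 1058 and 1087 CPM with Thapsigargin and 662.6 and 728.2 CPM under AA_Dep, against 2230 and 2150 CPM with DMSO (-1.01 ± 0.09, adjusted p = 4.8e-07, and -1.65 ± 0.10, adjusted p = 3.8e-09). VCAN fell by 1.77 ± 0.15 and 1.90 ± 0.15 and THBS1 by 1.26 ± 0.15 and 1.24 ± 0.14, and SPARC under AA_Dep by 1.01 ± 0.06. POSTN had 0 counts under either stress, against 12 counts with DMSO, at least 3.54-fold and at least 4.09-fold lower. NID2 had 50.8 and 48.6 CPM with Thapsigargin, against 11.2 and 9.74 CPM with DMSO (2.27 ± 0.14, adjusted p = 6.5e-09). The groups did not overlap in these genes. SMOC1 rose under stress here too, to 5 and 6.22 CPM with Thapsigargin and 5.97 and 8.31 CPM under AA_Dep. With DMSO it had 0 and 0.0994 CPM. The fitted log2 changes, 6.60 ± 0.52 and 6.93 ± 0.50, rest on that nearly empty group and are not measured sizes. With all 16 LX-2 libraries 10 were higher and 1 lower with TGFbeta (2.42% of all genes called), 2 higher and 9 lower with Thapsigargin (7.86% called) and 1 higher and 9 lower under AA_Dep (8.52% called), and FN1 and SPARC with Thapsigargin and THBS1 under both stresses no longer passed.

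**Figure D3:**
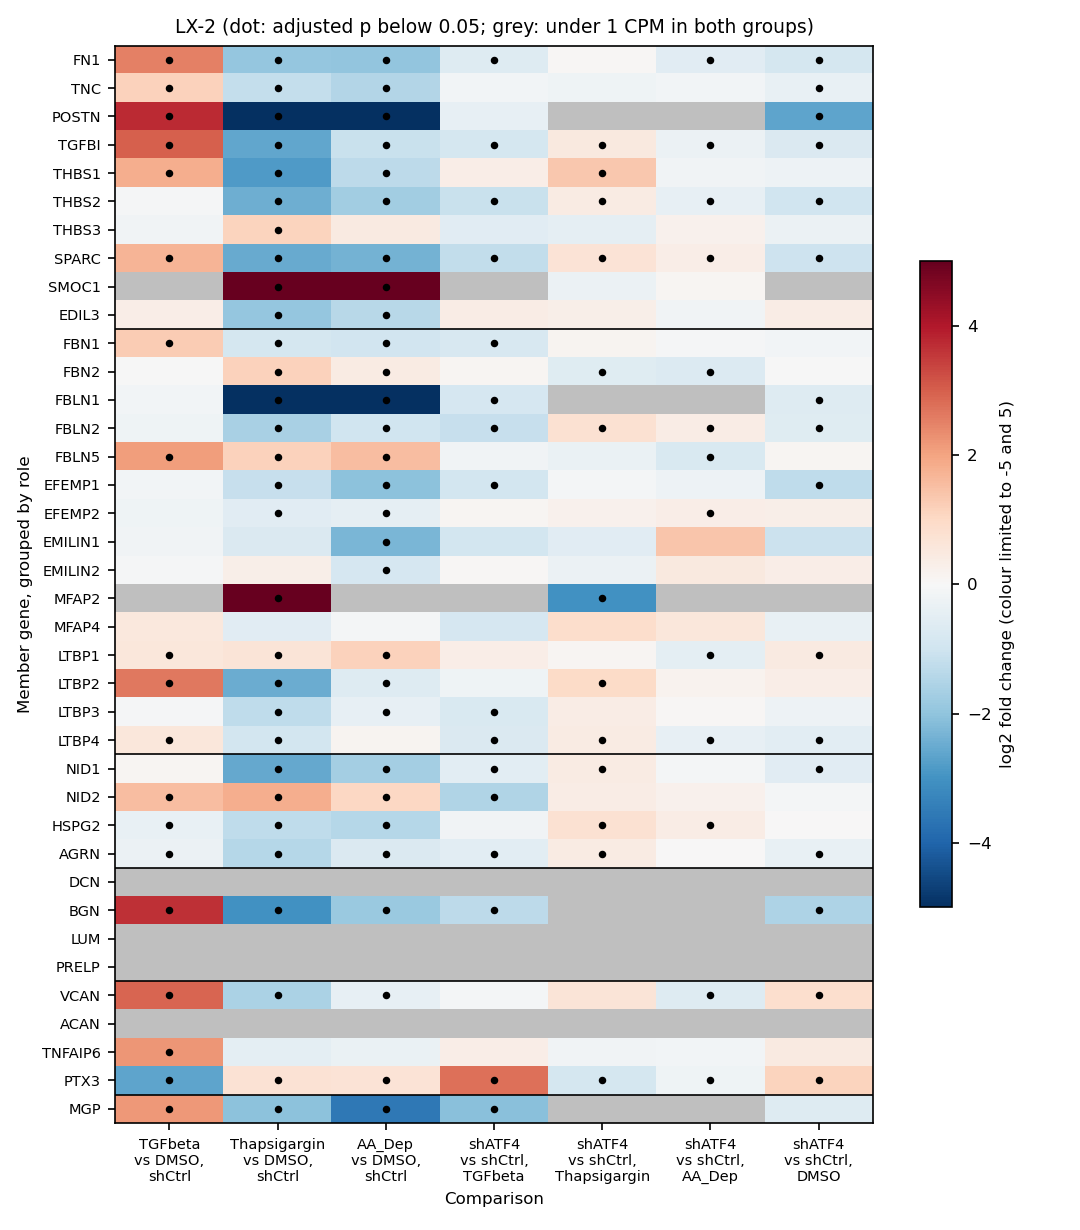
Log2 change of each member in LX-2, drawn between -5 and 5, for each condition against DMSO in shCtrl cells and for shATF4 against shCtrl within a condition. Dots mark an adjusted p below 0.05 and grey marks genes under 1 CPM in both groups. The Thapsigargin and AA_Dep columns against DMSO are mostly below 0, the TGFbeta column holds the large rises of FN1, VCAN, BGN and POSTN, and PTX3 with TGFbeta is lower than with DMSO but higher in shATF4 than in shCtrl.

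In HMLE the Twist_OE condition came with a broad rise of the matrix genes, including several that were at 0 counts with DMSO. In shCtrl 28 of 39 tested members were higher and 2 lower than with DMSO, with a median log2 change of 2.05, against 57.2% of all genes called, 28.3% higher and 28.9% lower, and a median of 0.00. Among roles, 8 of 12 adhesive genes and 11 of 16 elastic fibre genes rose. So did 3 of 7 small leucine-rich proteoglycans and 3 of 4 hyaluronan-binding genes, as FMOD, ASPN, OGN, PRELP and ACAN had too few counts to test in HMLE. DCN, BGN, TNFAIP6, VCAN, POSTN and EDIL3 were under 1 CPM in every HMLE library outside Twist_OE. Their Twist_OE counts may be what let them be tested, so passing the filter is no finding. DCN, decorin, had 78.1 and 79.3 CPM (3091 counts) with Twist_OE, against 0 counts with DMSO, at least 1054-fold higher. TNFAIP6, which loads proteins onto hyaluronan, and POSTN had 443 and 268 counts, against 0 counts, at least 151-fold and at least 91.4-fold higher. EDIL3, an integrin-binding glycoprotein, had 50.7 and 46 CPM, against 1 count in the DMSO libraries together.

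FN1 had 17980 and 13470 CPM with Twist_OE, against 470.4 and 418.1 CPM with DMSO (5.15 ± 0.15, adjusted p = 7.3e-16). PTX3 had 732.7 and 698.9 CPM, against 1.27 and 0.993 CPM (9.29 ± 0.10, adjusted p = 4e-22), and FBN1 had 313.6 and 205.9 CPM, against 1.13 and 0.784 CPM (8.06 ± 0.26, adjusted p = 2.9e-15). Both were near 1 CPM in each DMSO library. VCAN had 47.8 and 31.1 CPM, against 0.189 and 0.523 CPM (6.80 ± 0.32, adjusted p = 7.4e-13), and LUM, lumican, had 111.3 and 103 CPM, against 1.04 and 0.993 CPM (6.71 ± 0.20, adjusted p = 7.7e-16). SPARC had 856.6 and 842.4 CPM, against 221 and 223.7 CPM (1.94 ± 0.05, adjusted p = 1.7e-16), and THBS1 had 5354 and 4922 CPM, against 1402 and 1399 CPM (1.88 ± 0.07, adjusted p = 8.7e-15). No Twist_OE library overlapped a DMSO library in these genes. LTBP3 (-1.17 ± 0.06) and AGRN (-0.97 ± 0.06) were the members that fell, AGRN with 315 and 309 CPM, against 611.3 and 612.2 CPM. TNC (-0.10 ± 0.10, adjusted p = 0.4) and HSPG2 (0.16 ± 0.17, adjusted p = 0.45) did not pass.

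With the shATF4 hairpin the matrix levels of Twist_OE cells were lower. Here 24 of 39 members were lower and 3 higher than in shCtrl Twist_OE cells, with a median log2 change of -0.93, against 47.2% of all genes called, 23.3% higher and 23.9% lower, and a median of -0.02. Of the adhesive genes 8 of 12 were lower, and of the elastic fibre genes 8 of 16. The 3 small leucine-rich proteoglycans and 3 hyaluronan-binding genes tested, of 7 and 4 listed, were lower too. Most of these 6 were under 1 CPM outside Twist_OE, so their being tested is no finding. FN1 had 4425 and 3508 CPM in shATF4, against 17980 and 13470 CPM in shCtrl (-1.995 ± 0.13, adjusted p = 2.5e-10). PTX3 had 71.3 and 77.2 CPM, against 732.7 and 698.9 CPM (-3.28 ± 0.06, adjusted p = 8.4e-19). MGP, the calcification inhibitor matrix Gla protein, had 2.01 and 2.48 CPM, against 40.3 and 37.3 CPM (-4.11 ± 0.15, adjusted p = 3.6e-14). The shATF4 libraries were below the shCtrl libraries throughout. BGN had 0.434 and 1.35 CPM, against 16.5 and 20.8 CPM (-4.33 ± 0.30, adjusted p = 1.1e-09), and EDIL3 had 3.53 and 4.41 CPM, against 50.7 and 46 CPM (-3.60 ± 0.15, adjusted p = 3e-11). POSTN (-2.68 ± 0.32), LUM (-2.63 ± 0.13), VCAN (-1.84 ± 0.19) and SPARC (-0.67 ± 0.05) were lower too, and THBS1 by least, with 4554 and 4059 CPM, against 5354 and 4922 CPM (-0.26 ± 0.06, adjusted p = 0.002). AGRN (0.91), LTBP3 (0.90) and TNC (0.66) were higher, AGRN with 592.7 and 585.1 CPM, against 315 and 309 CPM.

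Twist_OE still went with higher matrix genes in shATF4 cells, where 23 members were higher and 1 lower than with DMSO (35.3% of all genes called, 18.2% higher and 17.2% lower). FN1 there had 4425 and 3508 CPM, against 578 and 493.7 CPM with DMSO (2.89 ± 0.14, adjusted p = 7.5e-12). SPARC rose by 1.16 ± 0.05 (adjusted p = 2.3e-12) and THBS1 by 1.42 ± 0.07 (adjusted p = 4e-12). VCAN had 12.8 and 9.45 CPM, against 2 counts in the DMSO libraries together, and POSTN 43 counts, against 0, at least 14.7-fold higher. The difference in Twist_OE response between hairpins passed for 15 of 39 members (29.7% of all genes called, 16.3% above 0 and 13.4% below), with 4 above 0 and 11 below, FN1 at -2.26 ± 0.19 (adjusted p = 1.1e-08) and MGP at -4.89 ± 0.42 (adjusted p = 2.5e-08) among them. TWIST1 itself was lower in shATF4, with 32.1 and 32.7 CPM in shATF4 Twist_OE, against 130.1 and 144.6 CPM in shCtrl Twist_OE, and 15.6 and 10.7 CPM in shATF4 DMSO, against 18 and 17.5 CPM in shCtrl DMSO. The 10 epithelial markers summed to 8617 and 8106 CPM in shATF4 Twist_OE, against 1997 and 1895 CPM in shCtrl Twist_OE, and to 10160 and 10070 CPM in shCtrl DMSO. The 11 stellate and fibroblast markers summed to 336.8 and 365.2 CPM, against 2199 and 2072 CPM, with 52.2 and 56.3 CPM in shCtrl DMSO. The part of TWIST1 level and of these markers in the lower matrix levels was not tested.

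Outside Twist_OE fewer HMLE matrix genes passed between hairpins. With DMSO 3 members were higher and 3 lower with shATF4 (12.8% of all genes called, 6.08% higher and 6.72% lower). With Thapsigargin 8 were higher and 5 lower (24.3% called, 12.3% higher and 11.9% lower), and under AA_Dep 7 higher and 1 lower (16.9% called, 9.77% higher and 7.09% lower). TGFBI was lower in all 4 HMLE conditions, for example with 147.9 and 139.3 CPM in shATF4 DMSO, against 220.2 and 233.6 CPM in shCtrl DMSO (-0.66 ± 0.05, adjusted p = 8.1e-08). FN1 (0.27 ± 0.13, adjusted p = 0.22) and SPARC (0.11 ± 0.05, adjusted p = 0.22) did not pass with DMSO. Under AA_Dep shATF4 is 1 library, assumed to vary like the other HMLE groups, so these differences have no replicate check in that arm. THBS1 had 3733 CPM in shATF4, against 1581 and 1835 CPM in shCtrl (1.13 ± 0.08, adjusted p = 3e-09), NID2 had 28.2 CPM, against 12.1 and 11.1 CPM (1.28 ± 0.15, adjusted p = 4.3e-06), and FN1 had 6507 CPM, against 4176 and 4840 CPM (0.53 ± 0.15, adjusted p = 0.023). The lone shATF4 library was above both shCtrl libraries in all 3 genes, but FN1 lost its call without shCtrl AA_Dep 1 (adjusted p = 0.17). SPARC was higher too under AA_Dep, with 146.6 CPM in shATF4, against 122.3 and 130.8 CPM in shCtrl (0.21 ± 0.07, adjusted p = 0.033). With Thapsigargin SPARC had 252.6 and 237.9 CPM in shATF4, against 215.8 and 199 CPM in shCtrl (0.24 ± 0.05, adjusted p = 0.0018), and THBS1 had 2148 and 2284 CPM, against 1889 and 1757 CPM (0.28 ± 0.06, adjusted p = 0.0029). The groups did not overlap in either gene, and with DMSO THBS1 was 0.20 ± 0.06 higher (adjusted p = 0.049). VCAN and POSTN were under 1 CPM in these HMLE groups and did not pass. AGRN (0.48) and NID2 (0.70) were higher with Thapsigargin and TNC (-0.36) lower, while FN1 did not pass (0.30 ± 0.13, adjusted p = 0.11). TNC lost its call without shATF4 Thapsigargin 2 or shCtrl Thapsigargin 1 (adjusted p of 0.067 to 0.11), and FN1 gained one without shCtrl Thapsigargin 1 (0.021). THBS1 lost its call without shCtrl Thapsigargin 2 (0.051) and, with DMSO, without any single library (0.13 to 0.19), and SPARC under AA_Dep without shCtrl AA_Dep 1 (0.22). The stress responses differed between hairpins for 3 of 39 members with Thapsigargin (4.56% of genes called, 2.16% above 0 and 2.4% below) and for 5, all above 0, under AA_Dep (5.09%, 2.99% above and 2.1% below).

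**Figure D4:**
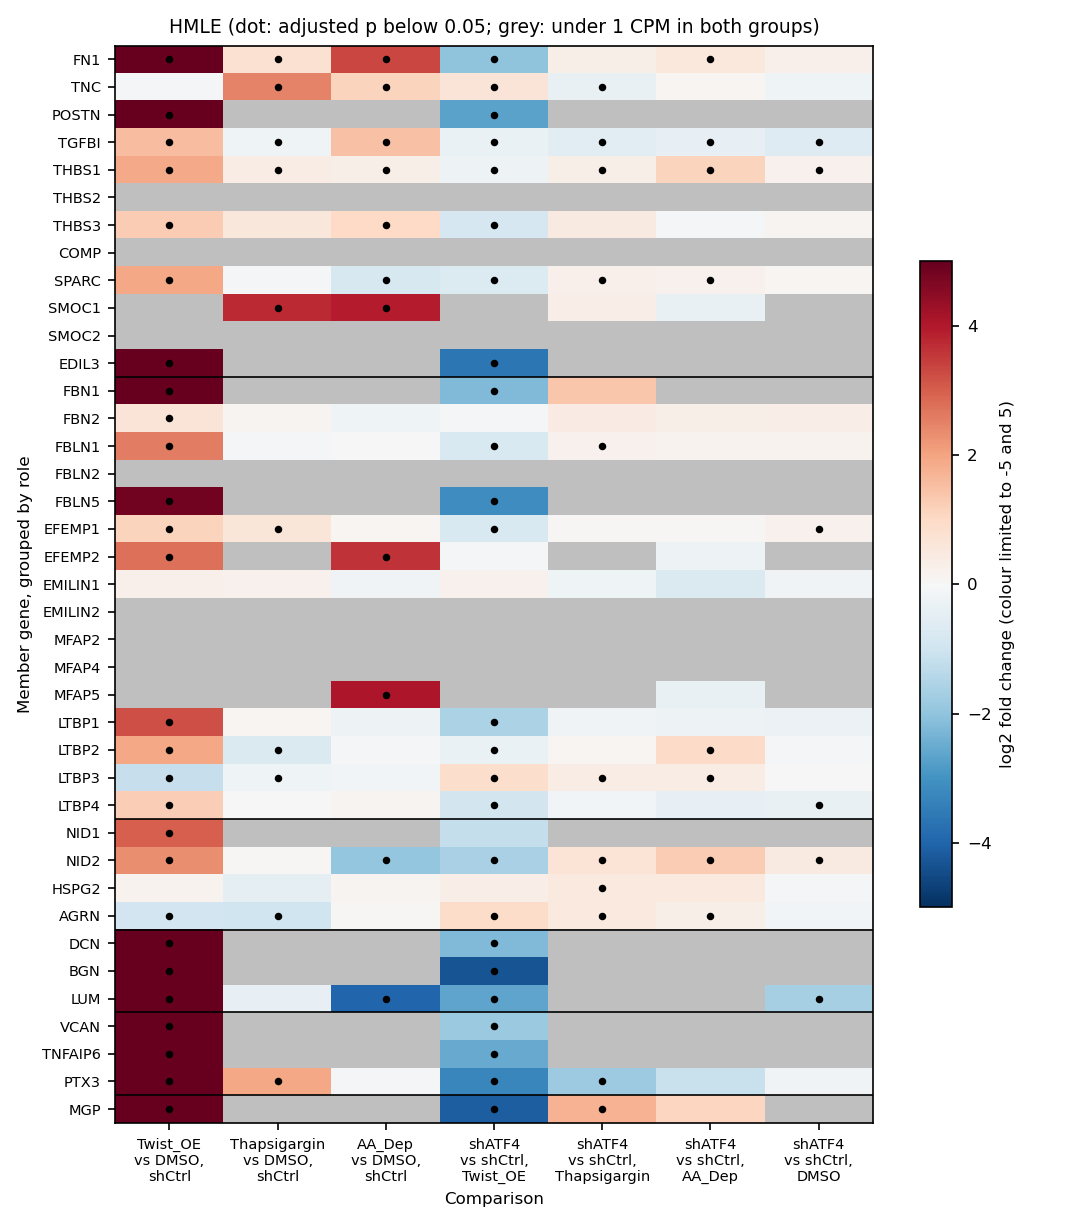
Log2 change of each member in HMLE, drawn between -5 and 5, for each condition against DMSO in shCtrl cells and for shATF4 against shCtrl within a condition. Dots mark an adjusted p below 0.05 and grey marks genes under 1 CPM in both groups. The Twist_OE column holds large rises, such as FN1 at 5.15, and the shATF4 against shCtrl column in Twist_OE is below 0 for most members, with AGRN, LTBP3 and TNC above it.

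Stress acted on the HMLE matrix genes differently than in LX-2. In HMLE shCtrl 6 members were higher and 4 lower with Thapsigargin (36.8% of all genes called, 18.6% higher and 18.2% lower), and 8 were higher and 3 lower under AA_Dep (61.7% called, 29.1% higher and 32.6% lower). FN1 had 861.5 and 666.3 CPM with Thapsigargin and 4176 and 4840 CPM under AA_Dep, against 470.4 and 418.1 CPM with DMSO (0.78 ± 0.13, adjusted p = 9.6e-05, and 3.35 ± 0.14, adjusted p = 4e-13). TNC, the de-adhesive glycoprotein tenascin-C, had 640.3 and 537.6 CPM with Thapsigargin and 209.7 and 247.9 CPM under AA_Dep, against 109.7 and 103.1 CPM (2.46 ± 0.10, adjusted p = 2.6e-13, and 1.11 ± 0.10, adjusted p = 7e-09). Both genes were above both DMSO libraries in every stressed HMLE library. TGFBI had 619.9 and 623.4 CPM under AA_Dep, against 220.2 and 233.6 CPM (1.46 ± 0.05, adjusted p = 4.8e-14), but was slightly lower with Thapsigargin (-0.23 ± 0.05, adjusted p = 0.0018). THBS1 rose by 0.37 and 0.29. SPARC did not pass with Thapsigargin (-0.11 ± 0.05, adjusted p = 0.12) and fell under AA_Dep, with 122.3 and 130.8 CPM, against 221 and 223.7 CPM (-0.81 ± 0.05, adjusted p = 1.7e-10). NID2 fell under AA_Dep, with 12.1 and 11.1 CPM, against 46 and 42.8 CPM (-1.94 ± 0.12, adjusted p = 5.2e-11). SMOC1 rose in HMLE too, at low levels, with 1.76 and 2.33 CPM with Thapsigargin and 2.14 and 2.51 CPM under AA_Dep, against 0.189 and 0.104 CPM (3.72 ± 0.50 and 3.91 ± 0.50). VCAN and POSTN stayed under 1 CPM in these HMLE groups and did not pass. Summed epithelial markers were 17210 and 16840 CPM with Thapsigargin and 12340 and 12840 CPM under AA_Dep, against 10160 and 10070 CPM with DMSO, and their part in these results was not tested.

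The response in LX-2 minus that in HMLE, tested in a joint fit of both lines, passed for 24 of 41 members with Thapsigargin, 4 above 0 and 20 below (27.7% of all genes called, 12.8% above and 14.9% below), and for 21 of 41 under AA_Dep, 4 above 0 and 17 below (40.3% called, 21% above and 19.3% below). FN1, TNC, THBS1 and EFEMP1, a fibulin, were lower than DMSO in LX-2 and higher in HMLE with Thapsigargin, and FN1, TNC, TGFBI, THBS1 and EFEMP2, another fibulin, under AA_Dep. EFEMP2 was scarce in HMLE shCtrl, with 2.38 and 1.99 CPM under AA_Dep, against 0.142 and 0.209 CPM with DMSO. The difference for FN1 was -2.73 ± 0.22 with Thapsigargin (adjusted p = 2.4e-10) and -5.34 ± 0.19 under AA_Dep (adjusted p = 4.5e-17). For TNC it was -3.66 ± 0.16 (adjusted p = 3.4e-15) and -2.61 ± 0.14 (adjusted p = 4.2e-14), and for THBS1 -3.22 ± 0.21 (adjusted p = 5.8e-12) and -1.61 ± 0.17 (adjusted p = 2.1e-08). NID2 went the reverse way under AA_Dep (2.93 ± 0.19, adjusted p = 2.8e-12). In the fit of all 16 LX-2 libraries 17 members passed in each comparison (21.6% and 14.5% of all genes), FN1, TNC and THBS1 with the same sign. Whether the exposures matched between lines is not given in the sources used here.

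**Figure D5:**
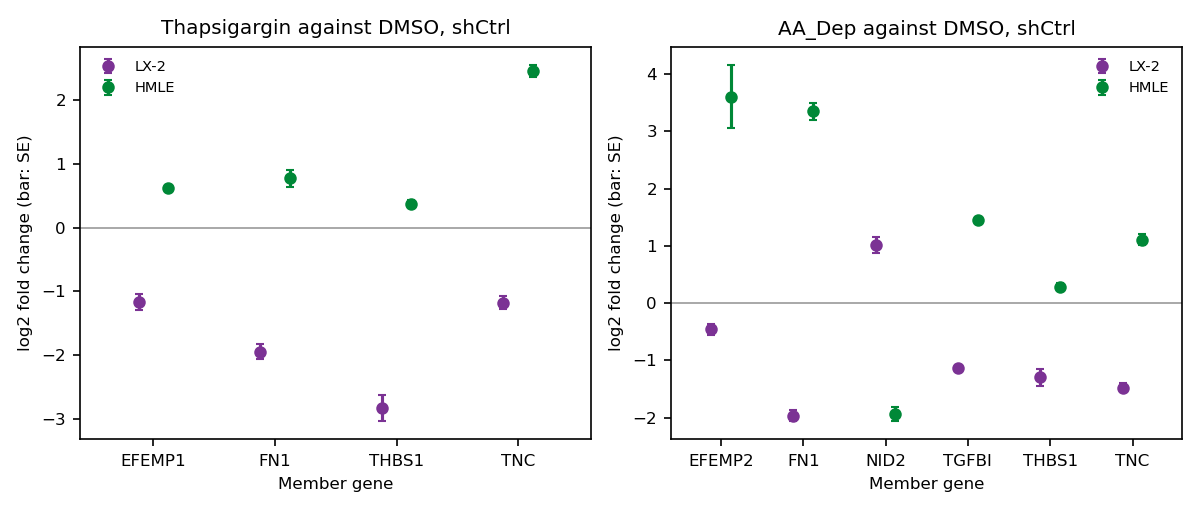
Log2 change against DMSO (± SE, shCtrl) in LX-2 and HMLE of the members called in opposite directions in the 2 lines, with Thapsigargin and under AA_Dep. FN1 under AA_Dep lies at -1.97 in LX-2 and 3.35 in HMLE, and NID2 is the member that is above 0 in LX-2 and below 0 in HMLE.

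The baseline matrix of the lines differed as well. In shCtrl DMSO 27 of 41 members were higher in LX-2 than in HMLE and 9 lower (70.4% of all genes called, 35.9% higher and 34.5% lower), with a median log2 difference of 2.22, against 0.07 over all genes. With all 16 LX-2 libraries the counts were 25 and 8 (51.5% called). THBS2 averaged 1122 ± 37.1 CPM in LX-2 and 0.298 ± 0.0216 CPM in HMLE (SD, n = 2 each; log2 difference 11.85 ± 0.16, adjusted p = 2.6e-27), and NID1 196 ± 0.509 CPM and 0.123 ± 0.0262 CPM (10.55 ± 0.18, adjusted p = 1.9e-25). PTX3 averaged 258 ± 18.8 CPM in LX-2 and 1.13 ± 0.199 CPM in HMLE (7.81 ± 0.11, adjusted p = 8.9e-27), and FN1 4066 ± 467 CPM and 444.2 ± 37 CPM (3.20 ± 0.14, adjusted p = 4.7e-17). SPARC (2.71) and VCAN (5.54) were higher in LX-2 too, and POSTN had 81 counts, against 0, at least 31.3-fold higher. THBS1 was the reverse, averaging 348.3 ± 14.7 CPM in LX-2 and 1401 ± 1.82 CPM in HMLE (-2.01 ± 0.12, adjusted p = 5.9e-14), as was NID2 (-1.96 ± 0.13, adjusted p = 3.3e-13). AGRN (-0.02 ± 0.08, adjusted p = 0.86) and LTBP2 (0.01 ± 0.13, adjusted p = 0.96) did not pass.

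Other matrix genes are given for context. In LX-2 shCtrl 22.1% of all genes were called with TGFbeta, 40.5% with Thapsigargin and 45.6% under AA_Dep, and with all 16 libraries 3.15%, 34.4% and 13%. Of 12 collagen genes tested, 8 were higher and 1 lower with TGFbeta, 12 lower with Thapsigargin and 9 lower under AA_Dep, and 4 higher, 10 lower and 8 lower with all 16 libraries. COL1A2, a chain of type I collagen, changed by 2.32 with TGFbeta, -5.55 with Thapsigargin and -7.63 under AA_Dep. Of 14 cross-linking and processing genes, 9 were higher and 1 lower with TGFbeta, LOX, which cross-links collagen and elastin, by 2.07, and 4 were higher with all 16 libraries. Of 16 matrix receptors, 9 rose and 2 fell with TGFbeta, ITGA11, a collagen-binding integrin, rising by 3.74, and 11 fell and 2 rose with Thapsigargin. With all 16 libraries 5 rose with TGFbeta, and 10 fell and 1 rose with Thapsigargin. Of 13 matrix proteases, 7 were higher and 2 lower with TGFbeta, and 2 higher and 1 lower with all 16 libraries. MMP1, an interstitial collagenase, changed by -2.70 with TGFbeta, 5.02 with Thapsigargin and 4.62 under AA_Dep. Of 16 genes of glycosaminoglycan synthesis, 6 were higher and 2 lower with TGFbeta and 8 higher and 5 lower with Thapsigargin, and with all 16 libraries 2 were higher and 0 lower, and 7 higher and 4 lower. Between hairpins, 7 collagens were lower with shATF4 in LX-2 DMSO (11.6% of all genes called) and 9 in LX-2 TGFbeta (21.7% called), and 3 and 4 with all 16 libraries (0.242% and 1.29% called). MMP1 was higher with shATF4 by 4.54 in LX-2 TGFbeta, and HAS2, a hyaluronan synthase, by 2.51 in LX-2 DMSO and 2.95 in LX-2 TGFbeta. In HMLE shCtrl with Twist_OE 10 of 11 collagens rose and 13 of 14 cross-linking genes rose and 1 fell (57.2% of all genes called). In Twist_OE cells 10 collagens were lower in shATF4 than in shCtrl, and 12 cross-linking genes were lower and 2 higher (47.2% called). The treatments moved their own gene lists, with 12 of 14 TGF-beta response genes higher with TGFbeta in LX-2 shCtrl, and 14 and 15 of 15 integrated stress response genes higher with Thapsigargin and under AA_Dep. All 14 endoplasmic reticulum chaperone genes were higher with Thapsigargin and 1 was higher and 8 lower under AA_Dep. With all 16 libraries 11 TGF-beta response genes were higher with TGFbeta, 14 and 12 stress response genes with Thapsigargin and under AA_Dep, and 12 chaperone genes with Thapsigargin, while 5 chaperone genes were lower under AA_Dep.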

How the data were processed

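Per the labels' protocols, RNA came from Qiagen RNeasy columns and was made into libraries by the SMARTER mRNA-Seq method. The submitters' processing notes name cutadapt, Bowtie2, STAR, HOMER, featureCounts and DESeq and the builds hg19 and hg38, without roles; whether strand was used in counting is not given in the sources used here. The authors deposited raw read counts per Ensembl gene, with no normalization. Lines without a gene held no counts and were left out, and 9 ChIP-seq samples were not analysed here.

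Differences were tested with edgeR 4.0.16 (R 4.3.3) by its quasi-likelihood F test on counts, after filterByExpr by group and TMM scaling, with all groups of a line in 1 fit and Benjamini-Hochberg adjustment over the 18649 genes tested in LX-2, 17940 in HMLE or 20308 in both lines. A call is an adjusted p below 0.05, and each SE is the absolute log2 change divided by the root of its F value. CPM used TMM-scaled library sizes of 31 libraries. Lower bounds on fold used a floor of 3 counts over the group. On simulated counts the LX-2 TGFbeta comparison recovered 84% of genes changed by a log2 of 1, and the HMLE Twist_OE comparison 88%. Of the calls there, 6.19% and 7.88% were false, above the cut-off of 0.05. The simulations changed 100 genes by a log2 of 1 and 100 by 2, all from genes averaging over 1 CPM. In the data 22.1% and 57.2% of genes were called in these comparisons. The rates therefore hold for the simulated setting only, and no comparison with a single library was simulated. Alternatives were DESeq2 1.42.0 (its size factors, and its Wald test), no filter, a replicate block, each replicate left out and all 16 LX-2 libraries; the 2 comparisons of stress response between lines were added after seeing the data. Statistics were given for up to 6 rises and 6 falls a comparison and up to 3 high members that did not pass, and FN1, SPARC, VCAN, THBS1 and POSTN were followed through the comparisons of 2 groups, as levels only where counts were few; others named were picked from the 46. The members and gene lists were chosen with earlier results of these data known. Promoters came from RefSeq, and Python 3.11.15 with matplotlib 3.10.9 drew the plots.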

Additional observations from a re-analysis of the deposited data

Results flagged for a closer look

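The values below are differences between 2 responses that passed the edgeR test of the difference itself (adjusted p below 0.05, log2 scale); most of those in LX-2 rest on leaving out the discordant library.

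For LX-2 with TGFbeta, the shATF4 response minus the shCtrl response was 1.65 for PTX3, 2.25 for POSTN, -0.94 for VCAN, -1.40 for NID2 and -0.57 for FBLN2. With Thapsigargin the shATF4 minus shCtrl response of LX-2 was positive for SPARC (1.70), THBS1 (1.58), THBS2 (1.40), FBLN2 (1.34), TGFBI (1.24), EFEMP1 (1.19), NID1 (0.98), FN1 (0.94), LTBP4 (0.94), AGRN (0.78), HSPG2 (0.73), LTBP3 (0.63) and the scarce BGN (2.74), and it was -1.99 for PTX3. Under AA_Dep it was positive for SPARC (1.35), EFEMP1 (1.01), FBLN2 (0.98), THBS2 (0.58), NID1 (0.47), TGFBI (0.44) and AGRN (0.38), and for the low-count BGN (1.55), EMILIN1 (2.47) and PRELP (4.41). It was negative for VCAN (-1.50), PTX3 (-1.36), LTBP1 (-0.94) and FBN2 (-0.68). It was -5.52 for FBLN1, a size that rests on 0 counts in shATF4 AA_Dep, against 18 counts in shCtrl AA_Dep. FBLN1 lost this call without some single libraries.

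For HMLE with Twist_OE the shATF4 minus shCtrl response was negative for MGP (-4.89), PTX3 (-3.09), FN1 (-2.26), NID2 (-2.06), LTBP1 (-1.31), THBS3 (-1.0), EFEMP1 (-0.99), FBLN1 (-0.91), SPARC (-0.77), LTBP4 (-0.57) and THBS1 (-0.46), and positive for AGRN (1.06), LTBP3 (0.89), TNC (0.88) and TGFBI (0.34). TWIST1 also differed between those hairpins, and its part was not tested. With Thapsigargin it was 0.63 for AGRN, 0.36 for LTBP3 and -1.63 for PTX3. Under AA_Dep, with 1 shATF4 library, it was 1.08 for LTBP2, 0.93 for THBS1, 0.82 for NID2, 0.44 for AGRN and 0.38 for LTBP3.

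Between lines, 24 members passed with Thapsigargin and 21 under AA_Dep, and those called in opposite directions in the 2 lines are given first. For these the LX-2 minus HMLE response to Thapsigargin in shCtrl cells was -3.66 for TNC, -3.22 for THBS1, -2.73 for FN1 and -1.80 for EFEMP1. Under AA_Dep it was -5.34 for FN1, -2.61 for TNC, -2.61 for TGFBI, -1.61 for THBS1 and 2.93 for NID2. It was -4.09 for the scarce EFEMP2, a size that rests on 7 counts in the HMLE shCtrl DMSO libraries together. Among members called in 1 line or with the same sign in both, the difference was -6.91 with Thapsigargin and -7.01 under AA_Dep for FBLN1, and -2.42 and -1.58 for SPARC. It was 1.71 with Thapsigargin for NID2 and -2.37 for TGFBI. Other members with few counts in a group, such as MFAP2, DCN and SMOC1 with Thapsigargin and POSTN, FBLN5 and SMOC1 under AA_Dep, also passed. No size is given for them.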

How the results depend on the processing

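The members called in each of the 27 comparisons stayed within 1.5 times the reported count with DESeq2 size factors and with the DESeq2 Wald test. With all 16 LX-2 libraries 12 of 16 comparisons moved further: 11 members were called with TGFbeta in shCtrl and 11 in shATF4, 11 with Thapsigargin in shATF4, 18 and 10 under AA_Dep in shCtrl and shATF4, 0, 5, 0 and 0 for shATF4 against shCtrl with DMSO, TGFbeta, Thapsigargin and AA_Dep, and 0, 3 and 0 for the differences in response to TGFbeta, Thapsigargin and AA_Dep. The discordant library raised the biological coefficient of variation of LX-2 to 29.5%, against 9.21% without it. It turned the sign of LTBP1 (-0.178), LTBP3 (0.86) and EFEMP2 (0.218) for Thapsigargin in shCtrl, of LTBP3 (-1.52) for the difference in Thapsigargin response between hairpins and of LTBP3 (0.865) for that between lines. It moved the median of all genes by 0.154 for shATF4 against shCtrl with Thapsigargin. Without the filter 11 members were called for shATF4 against shCtrl in HMLE DMSO and 5 for the difference in Thapsigargin response between HMLE hairpins. Same-numbered replicates did not vary together in every pair of groups (correlations of -0.536 to 0.442 over 28 pairs in LX-2 and -0.103 to 0.384 over 21 pairs in HMLE), so the numbers were not taken as pairs; with a replicate block the same HMLE comparison gave 5 calls, and 26 comparisons stayed within 1.5 times.

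Leaving out each replicate in turn gave 4 to 19 calls for shATF4 against shCtrl in LX-2 AA_Dep, 7 to 7 in LX-2 Thapsigargin, 1 to 3 in HMLE DMSO and 5 to 8 in HMLE AA_Dep. The difference in response gave 2 to 5 calls for TGFbeta and 8 to 18 for AA_Dep in LX-2, and 1 to 4 for Thapsigargin and 3 to 5 for AA_Dep in HMLE. The low HMLE counts were 1 without shATF4 DMSO 1, 2 without either shCtrl DMSO library and 3 without shATF4 DMSO 2 for DMSO, 5 without shCtrl AA_Dep 1 for AA_Dep, 1 without shATF4 DMSO 2 for the Thapsigargin response, and 3 without shATF4 DMSO 1 or either shCtrl AA_Dep library for the AA_Dep response. In LX-2 the AA_Dep response gave 8 without shATF4 AA_Dep 2 and 9 without shCtrl DMSO 2. Among members that did not pass, values near 0 changed sign: AGRN between lines (0.037 with DESeq2 size factors, 0.037 with the Wald test, 0.003 without the filter, 0.009 without HMLE shCtrl DMSO 1, 0.034 without LX-2 shCtrl DMSO 1, with -0.043 to 0.034 as its range without single libraries), LTBP2 between lines (-0.006 and -0.167 without those 2 libraries, -0.167 to 0.187 in all), TNC (-0.245 to 0.01) and HSPG2 (-0.014 to 0.299) with Twist_OE, and THBS1 for shATF4 in LX-2 AA_Dep (-0.478 to 0.18). The causes were not tested. LX-2 shCtrl Thapsigargin and HMLE shATF4 AA_Dep are single libraries in the fits, and members under a few counts allow no fold.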
